A study of Homo sapiens with 25 samples.

Results

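The genes described here encode the subunits, assembly chaperones, activators and inhibitor of the proteasome. They were taken as all symbols made of PSM, a letter from A to G and a number, with a value of at least 10 in 2 or more of the 25 libraries. Of 48 such symbols in the table, 47 passed, among 22994 genes of 36755 that passed the same filter. The remaining one, PSMB11, a catalytic subunit known from thymus epithelium, reached 10 in 0 libraries (highest value 4.02). The lowest member, PSMA8, an alpha subunit known from testis, ranged from 44.97 to 133 normalized counts, with a median of 77.8. By role there were 8 alpha subunits and 7 constitutive beta subunits of the 20S core, 3 immunoproteasome subunits, 6 ATPases and 11 other subunits of the 19S regulatory particle, 4 chaperones of core assembly, 3 chaperones of 19S assembly, 4 activators and 1 inhibitor.

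The cells were Jurkat, an established human T-cell leukaemia line, grown with graded amounts of the amino acid histidine. Day 3 was sampled at 0%, 12.5%, 25% and 50% histidine (3 libraries per level) and at 100% (2 libraries). Day 6 was sampled at 12.5% (2 libraries) and at 25%, 50% and 100% (3 libraries per level). A 0% group on day 6 was not analysed here. All groups are of the 1 line, no other agent or genetic change is named in the labels, and nothing there says that replicates were separate cultures, so the spread behind each p-value may be a technical one.

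The proteasome degrades proteins tagged with ubiquitin. Its barrel-shaped core holds the cutting sites on beta subunits inside rings of alpha subunits, and the 19S particle binds, unfolds and feeds in the substrate. In lymphoid cells, the immunoproteasome subunits can replace the constitutive catalytic ones and change the peptides made for presentation by MHC class I.

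The deposited values are normalized counts, in units that do not give the sequencing depth, so the depth is unknown and no counting error can be given. Their totals per library lay between 18.4 M and 21.4 M (M for mega). The T-lineage markers were present, and 11 of 11 passed the filter. Their summed level was 97330 to 103426 in the 0% libraries of day 3, against 58350 to 63572 at 100%, and 68077 to 68366 at 12.5% on day 6, against 54131 to 55021 at 100%. Transcripts of other tissues also appeared. In the libraries of day 6, heart muscle markers (5 of 6 listed genes in the table) summed to 50238 in replicate 2 of 25% histidine and to at most 171 in the 100% libraries. Over all 25 libraries, 4 listed erythroid, 6 fibroblast, 6 myeloid, 3 B-cell and 4 epithelial markers passed the filter. The erythroid sum ranged from 191 to 5042, the fibroblast sum from 1733 to 12263, the myeloid sum from 162 to 342, the B-cell sum from 219.9 to 681 (mostly CD79A; 606 to 667 in the 0% libraries of day 3, against 219.9 to 273 at 100%) and the epithelial sum from 206 to 442. Within these lists MS4A1, EPCAM, CSF1R and TNNT2 had medians of 0, while CD79A had a median of 316, KRT8 of 128, KRT18 of 144, LYZ of 190.0, MYH6 of 31.9 and MYL3 of 18.9. TNNT2 reached 24.9 in the library with the heart sum of 50238. The part of these transcripts in the results below was not tested. In RNA from a whole culture, fewer cells of a kind and less RNA per cell cannot be told apart.

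Relative to 100% histidine, proteasome transcripts changed at 25% and below, more of them up than down, and did not pass the test at 50%. In each comparison a gene was called at an adjusted p under 0.05 by limma over all genes tested, and a log2 change is given ± its SE. At 0% on day 3, 17 members rose and 6 fell relative to 100%, against 14.8% of all genes called higher and 16.1% called lower (31% in either direction). At 12.5% on day 3, 23 rose and 4 fell, against 14.2% of all genes called higher and 12% called lower (26.2% in either direction). At 25% on day 3, 17 rose and 8 fell, against 9.81% of all genes called higher and 9.72% called lower (19.5% in either direction). With total-sum scaling the split was 23 and 6. Set against 50% in place of 100%, without that scaling, 15 rose and 14 fell at 25% on day 3. There 11.4% of all genes were called higher and 12.5% lower. On day 6, 21 rose and 6 fell at 12.5%, against 10.8% of all genes called higher and 11.1% called lower (21.9% in either direction). With quantile normalization the split was 18 and 9. At 25% on day 6, 22 rose and 8 fell, against 11% of all genes called higher and 9.24% called lower (20.2% in either direction). Without the 25% library rich in heart transcripts, 19 rose and 7 fell.

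The median log2 change of the 47 members was 0.15 at 0%, 0.26 at 12.5% and 0.14 at 25% on day 3, where the medians of all genes tested were -0.02, -0.04 and -0.0036. On day 6 it was 0.15 at 12.5% and 0.17 at 25%, beside medians of -0.0037 and -0.02 over all genes. At 50% histidine limma called 0 members on either day, with 0% of all genes called on day 3 and 0.00435% on day 6. At an unadjusted p under 0.05, 5 members passed on day 3 (10.6%, against 4.68% of all genes) and 1 on day 6 (2.13%, against 4.78%). Every alternative setting that was run also gave 0 at the adjusted threshold. On day 3 the highest group mean stood at 12.5% for 24 members, at 50% for 11, at 0% for 9, at 25% for 2 and at 100% for 1. On day 6 it stood at 12.5% for 16, at 25% for 12, at 50% for 16 and at 100% for 3. Summed over members, the share of all normalized counts on day 3 was 0.611% ± 0.0085 at 0%, 0.661% ± 0.0154 at 12.5%, 0.617% ± 0.0182 at 25%, 0.581% ± 0.0310 at 50% (SD, n = 3 each) and 0.556% ± 0.0198 at 100% (SD, n = 2).

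**Figure D1:**
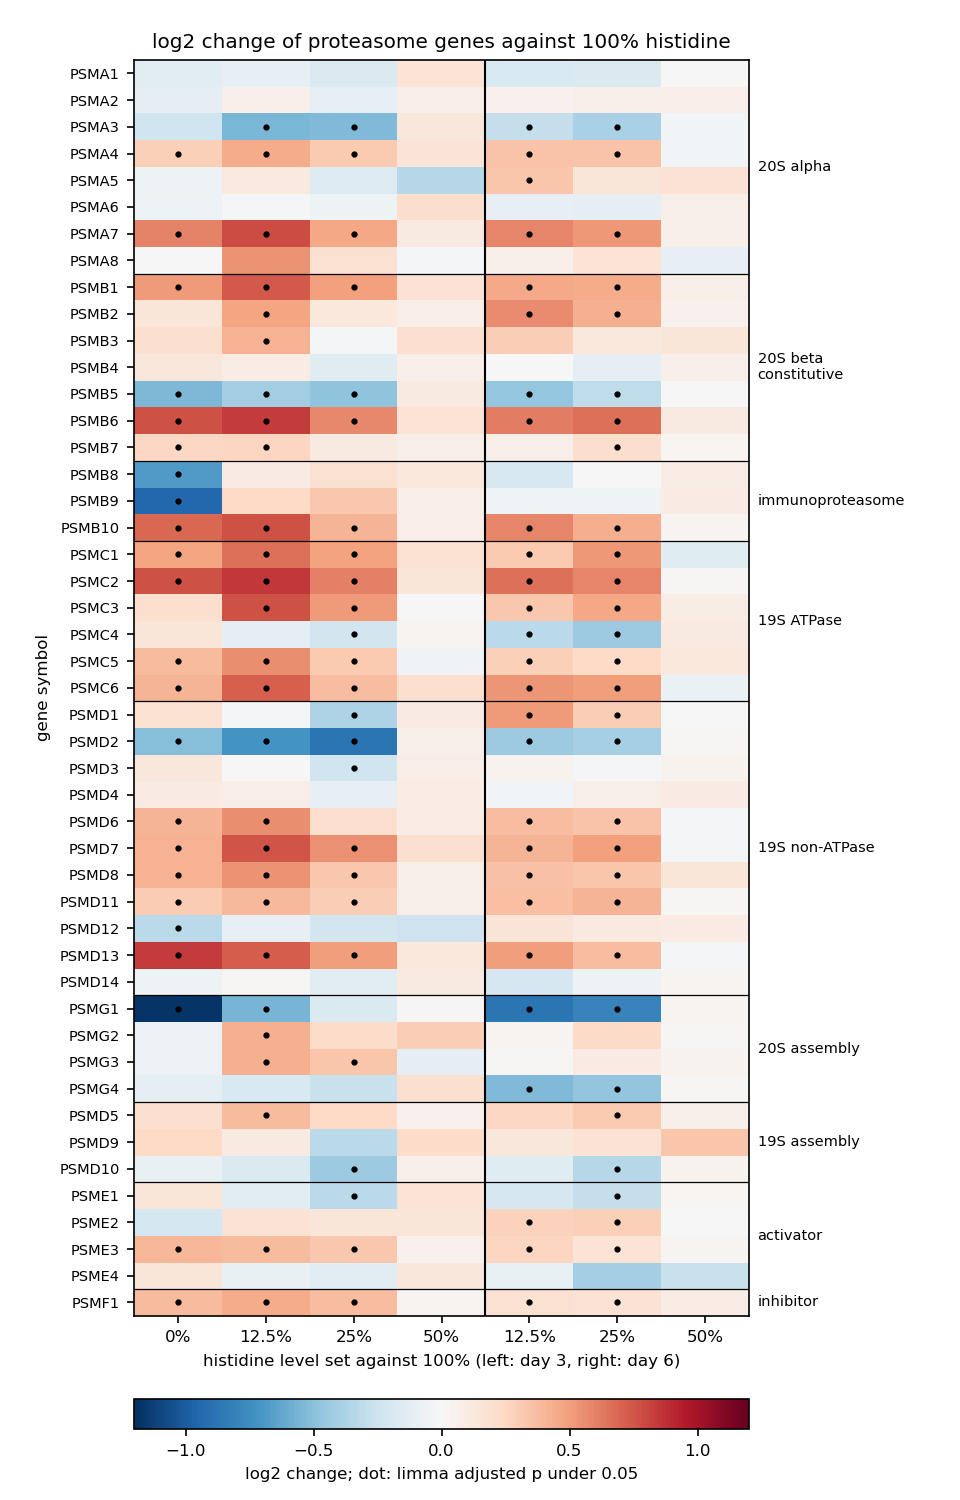
Colour gives the log2 change of each of the 47 genes (rows, by role) against 100% histidine on the same day (columns, histidine level from low to high), and a dot marks a limma adjusted p under 0.05. The 50% columns hold no dot, and the ATPases hold more red than blue at the lower levels.

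The same direction was called on both days, in comparisons that share no library, for 18 members that rose and 4 that fell at 12.5%, which is 46.8% of the members, against 14.2% of all genes (7.47% higher, 6.71% lower). At 25% it was 16 and 6, also 46.8%, against 9.95% of all genes (5.32% higher, 4.64% lower), and PSMD1 was called in opposite directions, each call being lost without replicate 3 of 100% of its day (limma adjusted p = 0.0623 and 0.0547). PSMA7, PSMB1, PSMB6, PSMC2, PSMD7, PSMD11 and PSMD13 rose, and PSMD2 fell, in all 4 of these comparisons, also when any 1 of the libraries compared was left out. Across the 47 members, Pearson's r between the log2 changes of the 2 days was 0.85 at 12.5% and 0.78 at 25%. It describes genes that share the same libraries within a day. Over all genes it was 0.37 and 0.23. A gene needed a value of only 10 in 2 libraries to be tested, while PSMD9, the lowest member after PSMA8, had a median of 340. The part of expression level in these shares and correlations was not tested.

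**Figure D2:**
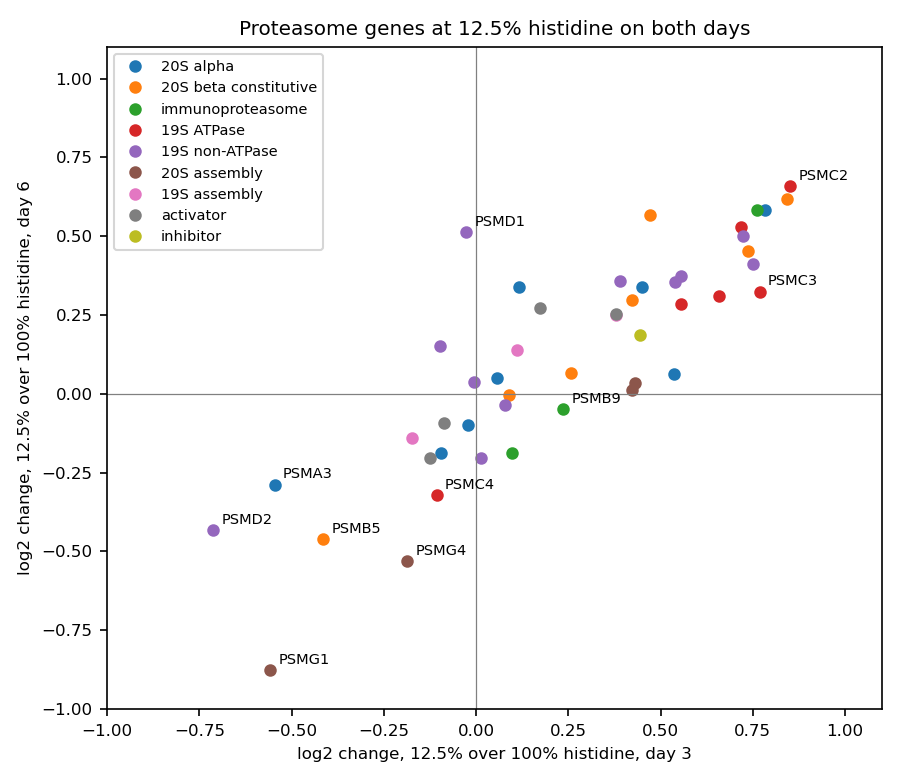
Each point is 1 of the 47 genes, with its log2 change at 12.5% over 100% histidine on day 3 (x axis) and on day 6 (y axis), coloured by role. Most points lie near a rising line, PSMG1 and PSMD2 lie at the low end, and PSMD1 stands above the line with 0.51 on day 6 and -0.03 on day 3.

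Among the alpha subunits, which form the outer rings and the gate of the core, PSMA7 rose and PSMA3 fell, while most of the others did not pass the test. Of 8, 2 rose and 0 fell at 0% on day 3, 2 rose and 1 fell at 12.5% on day 3, and 3 rose and 1 fell at 12.5% on day 6. Of all genes, 31%, 26.2% and 21.9% were called in these 3 comparisons, so the 2 of 8 at 0% are no more than the share of genes in general. PSMA7 had normalized counts on day 3 of 5969, 5545 and 5493 at 0%, 6411, 6333 and 6539 at 12.5%, 5505, 4989 and 4958 at 25%, 4463, 3758 and 3882 at 50% and 3488 and 4006 at 100%. On day 6 it had 4622 and 4764 at 12.5%, 4947, 4252 and 4267 at 25%, 3082, 3544 and 3250.4 at 50% and 3129.8, 3214 and 3046 at 100%. Every library at 25% or below lay above every 100% library of its day. The log2 change was 0.60 ± 0.08, adjusted p = 1.23e-06 (limma) at 0% on day 3 and 0.58 ± 0.08, adjusted p = 4e-06 at 12.5% on day 6.

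PSMA3 had normalized counts on day 3 of 1556, 1311 and 1603 at 0%, 1159, 1201 and 1234 at 12.5%, 1288, 1215 and 1146 at 25%, 2162, 1817 and 1816 at 50% and 1805 and 1695 at 100%. The 12.5% and 25% libraries lay below all others of the day, and the 0% libraries lay between them and the 100% libraries. The log2 change was -0.55 ± 0.10, adjusted p = 0.000194 (limma) at 12.5%, and -0.24 with an adjusted p of 0.0871 at 0%. The 0% level was higher than the 12.5% level by 0.31 (log2, limma adjusted p = 0.0163), a call that was lost without replicate 1 or 3 of 0% or replicate 1 of 12.5% (adjusted p 0.0611 to 0.0916). On day 6, PSMA3 had 1115 and 1174 at 12.5% and 1431, 1588 and 1200 at 100%. That fall was called, but the call was lost without replicate 1 (limma adjusted p = 0.111) or 2 (0.235) of 100%. Without replicate 1 or 2 of 12.5%, which leaves 1 library there, its log2 change was -0.25 or -0.33. PSMA3 (chromosome 14, 58244831 to 58272012, plus strand, GRCh38) overlaps the antisense gene PSMA3-AS1 (58265365 to 58298134, minus strand). PSMA3-AS1 rose by 0.86 ± 0.19 at 0% on day 3 (log2, limma adjusted p = 0.000627), where PSMA3 did not pass. Its day 3 means were 510 ± 49.3 at 0%, 421 ± 27.5 at 12.5%, 372 ± 64.6 at 25% (SD, n = 3 each) and 280 ± 10.6 at 100% (SD, n = 2). PSMA3-AS1 was thus highest at 0%, while PSMA3 was lower at 12.5% and 25% than at 0%. The libraries kept strand, but no source used here says whether the counting used it.

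The constitutive beta subunits split by gene. PSMB6, which carries the caspase-like site, and PSMB1 rose, and PSMB5, which carries the chymotrypsin-like site, fell. Of 7, 3 rose and 1 fell at 0% on day 3, 5 rose and 1 fell at 12.5% on day 3, and 3 rose and 1 fell at 12.5% on day 6, where 31%, 26.2% and 21.9% of all genes were called. PSMB6 had normalized counts on day 3 of 3394, 3049 and 3091 at 0%, 3423, 3183 and 3454 at 12.5%, 3050.2, 2603 and 2742 at 25%, 2174, 2021 and 2095 at 50% and 1691 and 2063 at 100%. PSMB6 had 2347 and 2429 at 12.5%, 2504, 2759 and 2168 at 25%, 1624, 1732 and 1673 at 50% and 1492, 1683 and 1503 at 100% on day 6. The 0%, 12.5% and 25% libraries lay above the 100% libraries of their day, with log2 change 0.76 ± 0.09, adjusted p = 2.72e-07 (limma) at 0% on day 3.

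PSMB5 had normalized counts on day 3 of 1320.4, 1137 and 1078 at 0%, 1249, 1354 and 1240.4 at 12.5%, 1273, 1185 and 1209 at 25%, 1977, 1724 and 1812 at 50% and 1648 and 1768 at 100%. PSMB5 had 989 and 1112 at 12.5%, 1195, 1315 and 1015 at 25%, 1404, 1495 and 1461 at 50% and 1366, 1491 and 1481 at 100% on day 6. The step lay between 50% and 25% on day 3, with log2 change -0.59 ± 0.09, adjusted p = 1.06e-05 (limma), and the 0%, 12.5% and 25% libraries overlapped. PSMB7, which carries the trypsin-like site, had 5649.7, 5294 and 5225 normalized counts at 0% and 4298 and 4777 at 100% on day 3. Its change of 0.25 ± 0.09 (limma adjusted p = 0.0275) was lost on leaving out replicate 1 of 0% (0.0957) or replicate 1 of 100% (0.28).

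The immunoproteasome subunits, which take the places of PSMB5, PSMB6 and PSMB7, parted at 0% histidine. PSMB8 and PSMB9 fell there and PSMB10 rose. PSMB8, which replaces PSMB5, had normalized counts on day 3 of 922, 780.5 and 899 at 0%, 1576, 1412 and 1465 at 12.5%, 1679, 1438 and 1624 at 25%, 1654, 1468 and 1438 at 50% and 1263 and 1523 at 100%. PSMB9, which replaces PSMB6, had 405, 385 and 319.7 at 0%, 793, 844 and 867 at 12.5%, 979, 777 and 923 at 25%, 759, 697 and 801 at 50% and 633 and 793 at 100%. On day 6, PSMB8 had 1140.5 and 1172 at 12.5%, 1422, 1241 and 1289 at 25%, 1335, 1494 and 1378 at 50% and 1274, 1328 and 1355 at 100%, and PSMB9 had 652 and 664 at 12.5%, 698, 638 and 642 at 25%, 699, 811 and 682 at 50% and 659.8, 648 and 737 at 100%. For both genes the 0% libraries lay below every other library of the series, while the 12.5% libraries lay within or above the range of the 100% libraries of day 3.

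At 0% against 100% the fall had a log2 change -0.68 ± 0.10, adjusted p = 2.83e-06 for PSMB8 and a log2 change -0.94 ± 0.12, adjusted p = 6.07e-07 for PSMB9 (limma). Against 12.5% it was -0.78 ± 0.09, adjusted p = 9.83e-08 for PSMB8 and -1.18 ± 0.11, adjusted p = 3.03e-09 for PSMB9 (limma). At 12.5% against 100% neither passed the test, with 0.10 ± 0.10 and 0.24 ± 0.12 on day 3 and -0.19 ± 0.10 and -0.05 ± 0.12 on day 6. PSMB10, which replaces PSMB7, had normalized counts on day 3 of 884, 816 and 811 at 0%, 970.0, 779 and 906 at 12.5%, 729.8, 642 and 696 at 25%, 557, 542 and 549 at 50% and 478 and 565 at 100%. PSMB10 had 676 and 648 at 12.5%, 598, 606 and 586 at 25%, 434, 482 and 436 at 50% and 408, 422 and 499 at 100% on day 6. It rose by 0.69 ± 0.11 at 0% (log2, limma adjusted p = 1.39e-05), and its 25% libraries lay between the 50% and the 12.5% libraries of day 3.

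**Figure D3:**
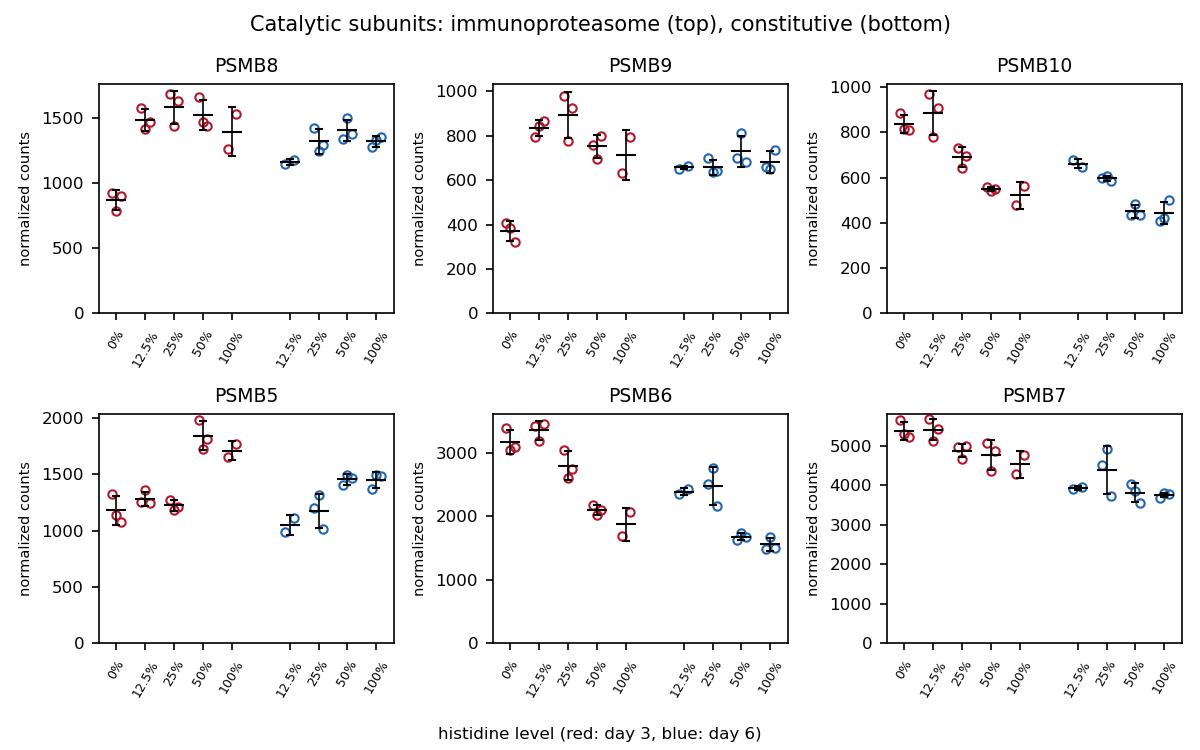
Normalized counts per library (circles; red day 3, blue day 6) of the 3 immunoproteasome subunits (top) and the 3 constitutive subunits they replace (bottom), with group means and SD (bars), by histidine level from low to high within a day. PSMB8 and PSMB9 are lowest at 0% on day 3, where PSMB10 and PSMB6 are high.

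PSMB8 (chromosome 6, 32840717 to 32844703, minus strand, GRCh38) and PSMB9 (32844136 to 32859585, plus strand) lie in the MHC class II region beside TAP1 (32845209 to 32853978, minus strand) and TAP2 (32821833 to 32838780, minus strand), which encode the pump that carries proteasome peptides to MHC class I. PSMB10 lies on chromosome 16 (67934502 to 67937087, minus strand). TAP1 had 852, 910.1 and 925 normalized counts at 0% on day 3, 1388, 1368 and 1299.9 at 12.5% and 1137 and 1454 at 100%. TAP2 had 892, 1131 and 881 at 0%, 1165, 1310.2 and 1217 at 12.5% and 1508 and 1623 at 100%. Both fell at 0% against 100%, with log2 change -0.52 ± 0.10, adjusted p = 0.000148 and log2 change -0.70 ± 0.11, adjusted p = 1.99e-05 (limma), and the groups did not overlap. The annotated PSMB9 gene overlaps TAP1 and PSMB8 on the opposite strand, so reads could be shared with them if strand was not used in counting. It also overlaps the noncoding gene PSMB8-AS1 (32844086 to 32846495, plus strand), which lies on its own strand, so strand would not separate those reads. PSMB8-AS1 had 5.29 to 13.3 normalized counts in the 0% libraries and 8.94 to 17.3 in the 100% libraries of day 3. These overlaps are of whole gene spans, and sharing of reads was not tested.

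The bases upstream of these 3 genes are shown because the genes share a role but were called in opposite directions at 0%. Each run is the 200 bases before a RefSeq start (GRCh38.p14), in the direction of the gene. PSMB8 is shown at chr6:32844048-32844247 (minus strand), PSMB9 at chr6:32853992-32854191 (plus strand) and PSMB10 at chr16:67936851-67937050 (minus strand). The table holds another PSMB8 start, whose preceding 200 bases are chr6:32844680-32844879 (minus strand), with no match to any motif searched; the start with a match is the one printed. Capitals mark TTCNNNGAA (a gamma-activated site) in PSMB8, TGACNNNGC (the core of an antioxidant response element, here on the opposite strand) in PSMB9 and the interferon response element (a pair of GAAA runs with NN between them) in PSMB10. The PSMB8 start printed here also holds an interferon response element, at -4 on the opposite strand. That match runs past the end of the printed bases and is therefore unmarked.
PSMB8: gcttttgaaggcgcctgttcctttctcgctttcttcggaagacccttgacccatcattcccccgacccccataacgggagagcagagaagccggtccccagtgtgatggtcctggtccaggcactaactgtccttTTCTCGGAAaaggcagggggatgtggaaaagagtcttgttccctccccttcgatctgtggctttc
PSMB9: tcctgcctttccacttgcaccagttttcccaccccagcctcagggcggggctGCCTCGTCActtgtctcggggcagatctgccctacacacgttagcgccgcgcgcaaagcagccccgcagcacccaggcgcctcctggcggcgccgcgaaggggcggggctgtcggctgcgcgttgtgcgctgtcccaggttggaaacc
PSMB10: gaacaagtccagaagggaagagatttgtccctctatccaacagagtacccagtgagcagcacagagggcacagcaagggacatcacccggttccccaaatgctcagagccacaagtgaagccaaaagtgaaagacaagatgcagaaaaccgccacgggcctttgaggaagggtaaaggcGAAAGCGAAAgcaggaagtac

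These motifs were searched on both strands, from 250 bases before to 50 after each start, in the 41 member genes that the RefSeq table holds. TGACNNNGC was in 15 of them (36.6%) and in 16.1% of all 27305 genes of the table. The interferon response element was in 7 (17.1%), among them PSMB8, PSMB10, PSME1 and PSME2, and in 4.38% of all genes. TTCNNNGAA was in 8 (19.5%), against 9.38%. CCAAT was in 19 (46.3%), against 39.7%. GAANNTTC, the heat shock element, was in 0, against 8.21%, and TGATGNAA, the amino acid response element, in 1 (PSMF1, 2.44%), against 4.46%. A match describes these letters only.

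For each pair, the ratio of immunoproteasome to constitutive subunit was compared by an exact permutation test (two-sided), in which 2 libraries against 3, or 3 against 3, cannot go below 0.1, so no ratio could pass 0.05. The mean log2 ratio of PSMB9 to PSMB6 was -3.11 ± 0.15 at 0% (SD, n = 3) and -1.40 ± 0.03 at 100% (n = 2) on day 3. The groups did not overlap, and the difference of 0% from 100% was -1.71 (exact permutation p = 0.1, 0.136 adjusted over 30 tests). This ratio also lay below 100% without overlap at 12.5% (-0.61) and 25% (-0.25) on day 3. On day 6 it did so at 12.5% (-0.67) and 25% (-0.71), and at 50% the groups overlapped on both days. PSMB8 to PSMB5 was -0.44 ± 0.16 at 0% and -0.30 ± 0.12 at 100%, which overlapped, and 0.37 ± 0.08 at 25%, which lay above both. PSMB10 to PSMB7 was -2.69 ± 0.01 at 0% and -3.12 ± 0.06 at 100%. Per kilobase of the principal GENCODE transcript, PSMB8 at 100% on day 3 stood at 1239 ± 164 beside 1320 ± 65.6 for PSMB5, PSMB9 at 912 ± 145 beside 2203 ± 308 for PSMB6, and PSMB10 at 428 ± 50.2 beside 4630 ± 346 for PSMB7 (normalized counts per kilobase, SD, n = 2).

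**Figure D4:**
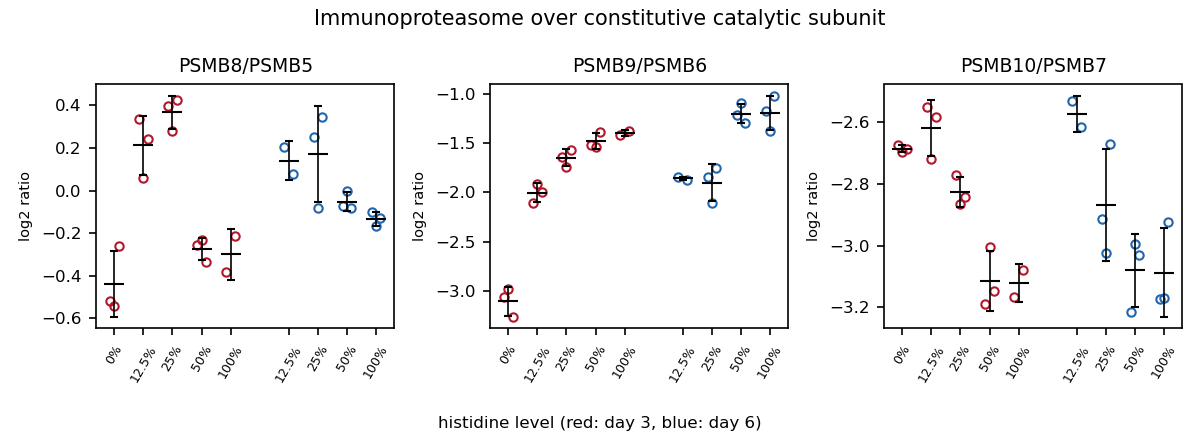
Log2 ratio per library (circles; red day 3, blue day 6) of PSMB8 to PSMB5, PSMB9 to PSMB6 and PSMB10 to PSMB7, with group means and SD (bars), by histidine level from low to high. The 0% libraries of PSMB9 to PSMB6 average -3.11 and lie below all others.

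The ATPases, whose ring unfolds the substrate, mostly rose, with PSMC4 apart. Of 6, 4 rose and 0 fell at 0% on day 3, 5 rose and 0 fell at 12.5%, and 5 rose and 1 fell at 25%. On day 6, 5 rose and 1 fell at each of 12.5% and 25%. The shares of all genes called were 31%, 26.2% and 19.5% in the day 3 comparisons and 21.9% and 20.2% in those of day 6. PSMC2 had normalized counts on day 3 of 2638, 2504 and 2449 at 0%, 2796, 2662 and 2587 at 12.5%, 2392, 2062 and 2326 at 25%, 1592, 1600.2 and 1726 at 50% and 1452 and 1518 at 100%. PSMC2 had 2046 and 2104 at 12.5%, 2334, 1874 and 1738 at 25%, 1491, 1479 and 1054 at 50% and 1272, 1443 and 1235 at 100% on day 6. Every library at 25% or below lay above all libraries at 50% and 100% of its day. The log2 change was 0.77 ± 0.12, adjusted p = 1.37e-05 (limma) at 0% on day 3, and it had the largest log2 rise of any member at 12.5% on both days (0.85 and 0.66).

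PSMC3 had normalized counts on day 3 of 4526, 3752 and 4385 at 0%, 6432, 5842 and 6408 at 12.5%, 5429, 4832 and 5329 at 25%, 3907, 3499 and 3555 at 50% and 3372 and 3954 at 100%. It was highest at 12.5% and lower at 0% than there (log2 change -0.56 ± 0.08, limma adjusted p = 6.41e-06). PSMC4 had normalized counts on day 3 of 2748, 2702 and 2841 at 0%, 2279.9, 2227 and 2454 at 12.5%, 2235, 2068 and 2132 at 25%, 2701, 2422 and 2567 at 50% and 2635 and 2366 at 100%. PSMC4 had 2009 and 2056 at 12.5%, 1847, 1964 and 1822 at 25%, 2652, 2825 and 2707 at 50% and 2635, 2466 and 2516 at 100% on day 6. It fell at 12.5% on day 6, with log2 change -0.32 ± 0.07, adjusted p = 0.000821 (limma), and at 12.5% on day 3 its change was -0.11 ± 0.07, which did not pass. PSMC1 had 1769, 1605 and 1886 at 0% and 1192 and 1338 at 100% on day 3 (log2 change 0.47 ± 0.09, adjusted p = 0.000147, limma). A processed pseudogene listed separately, PSMC1P1 on chromosome 3, could share its reads, and the sum of both gave 0.52 ± 0.07 (log2, limma adjusted p = 9.14e-07). PSMC6 had 1122, 1206 and 1041 at 25% and 683, 729 and 842 at 50% on day 6, with log2 change 0.58 ± 0.10, adjusted p = 0.00014 (limma).

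The other 19S subunits, which bind ubiquitin chains and remove them, included the largest rise at 0% and the largest fall at 25% on day 3. Of 11, 5 rose and 2 fell at 0% on day 3, 5 rose and 1 fell at 12.5%, and 6 rose and 1 fell at 12.5% on day 6, beside 31%, 26.2% and 21.9% of all genes called. PSMD13, a lid subunit, had normalized counts on day 3 of 7443, 7194 and 7119 at 0%, 6949.8, 6592 and 6540.1 at 12.5%, 6004, 5412 and 5796 at 25%, 4742, 4207 and 4377 at 50% and 3816 and 4309 at 100%. PSMD13 had 5064 and 5068 at 12.5%, 5149, 4102 and 4672 at 25%, 3295, 3746 and 3613 at 50% and 3625, 3697 and 3431 at 100% on day 6. On day 3 the groups from 0% to 50% did not overlap, highest at 0%, while 50% and 100% overlapped. The log2 change at 0% was 0.84 ± 0.08, adjusted p = 2.9e-09 (limma). PSMD6, PSMD7, PSMD8 and PSMD11, also of the lid, rose at 0% and 12.5% on day 3 and at 12.5% on day 6, with log2 changes between 0.31 and 0.75. On day 6 the call of PSMD8 at 12.5% was lost without replicate 2 of 12.5% (adjusted p = 0.0604).

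PSMD2, a large scaffold subunit of the base that docks ubiquitin carriers, moved the other way. It had normalized counts on day 3 of 4969, 4928 and 4796 at 0%, 4521, 4055 and 4181 at 12.5%, 3934, 3900.3 and 3578 at 25%, 7290.4, 7319 and 7239.8 at 50% and 6554 and 7399 at 100%. PSMD2 had 3907 and 3900.4 at 12.5%, 3890.2, 4403 and 3749.9 at 25%, 5337, 5284 and 5351 at 50% and 5381, 5437 and 5002 at 100% on day 6. On each day the libraries at 25% and below lay under every library at 50% and 100%. Among them, the 0%, 12.5% and 25% groups of day 3 did not overlap, with 0% highest and 25% lowest. The log2 change was -0.87 ± 0.07, adjusted p = 2.75e-10 (limma) at 25%, the largest fall of any member there, -0.71 ± 0.07 at 12.5% and -0.51 ± 0.07 at 0%. PSMD12, a lid subunit, fell by 0.32 on the log2 scale at 0% (limma adjusted p = 0.0498), a call lost under 11 of 15 alternatives, among them leaving out replicate 2 (adjusted p = 0.133) or 3 (0.1) of 0% or replicate 3 of 100% (0.51).

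PSMD1, the partner scaffold of PSMD2, differed between days. It had normalized counts on day 3 of 2522, 2507 and 2237 at 0%, 2098, 2186 and 2006 at 12.5%, 1759.9, 1679.8 and 1520.2 at 25%, 2433, 2139.6 and 2301 at 50% and 2041 and 2231 at 100%. PSMD1 had 1976 and 2031 at 12.5%, 1669.7, 1812 and 1686 at 25%, 1461, 1390.0 and 1378 at 50% and 1362, 1572 and 1293 at 100% on day 6. On day 3 the 25% libraries lay below all others, and on day 6 the 12.5% and 25% libraries lay above the 50% and 100% libraries. The day 6 effect minus the day 3 effect was 0.66 ± 0.11 at 25% (log2, limma adjusted p = 0.000525) and 0.54 ± 0.12 at 12.5% (adjusted p = 0.00976). The 25% call in each day was lost without replicate 3 of its 100% group (adjusted p = 0.0623 on day 3, 0.0547 on day 6). In all, 2 members passed this test at 25%, PSMD1 and PSMD2, both with a positive difference, against 2.71% of all genes called higher and 2.01% called lower (4.72% in either direction). With total-sum scaling 2 were positive and 4 negative, and with quantile normalization 2 and 1. At 12.5% PSMD1 and PSMC3 passed, against 1.28% of all genes called higher and 2.36% called lower (3.64% in either direction). Both calls at 12.5% depended on single libraries: PSMD1 was lost when replicate 3 of 100% on day 3 (0.0575) or replicate 2 of 12.5% on day 6 (0.0589) was left out, and PSMC3 without any 1 of 8 of the 10 libraries compared (0.0578 to 0.309).

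**Figure D5:**
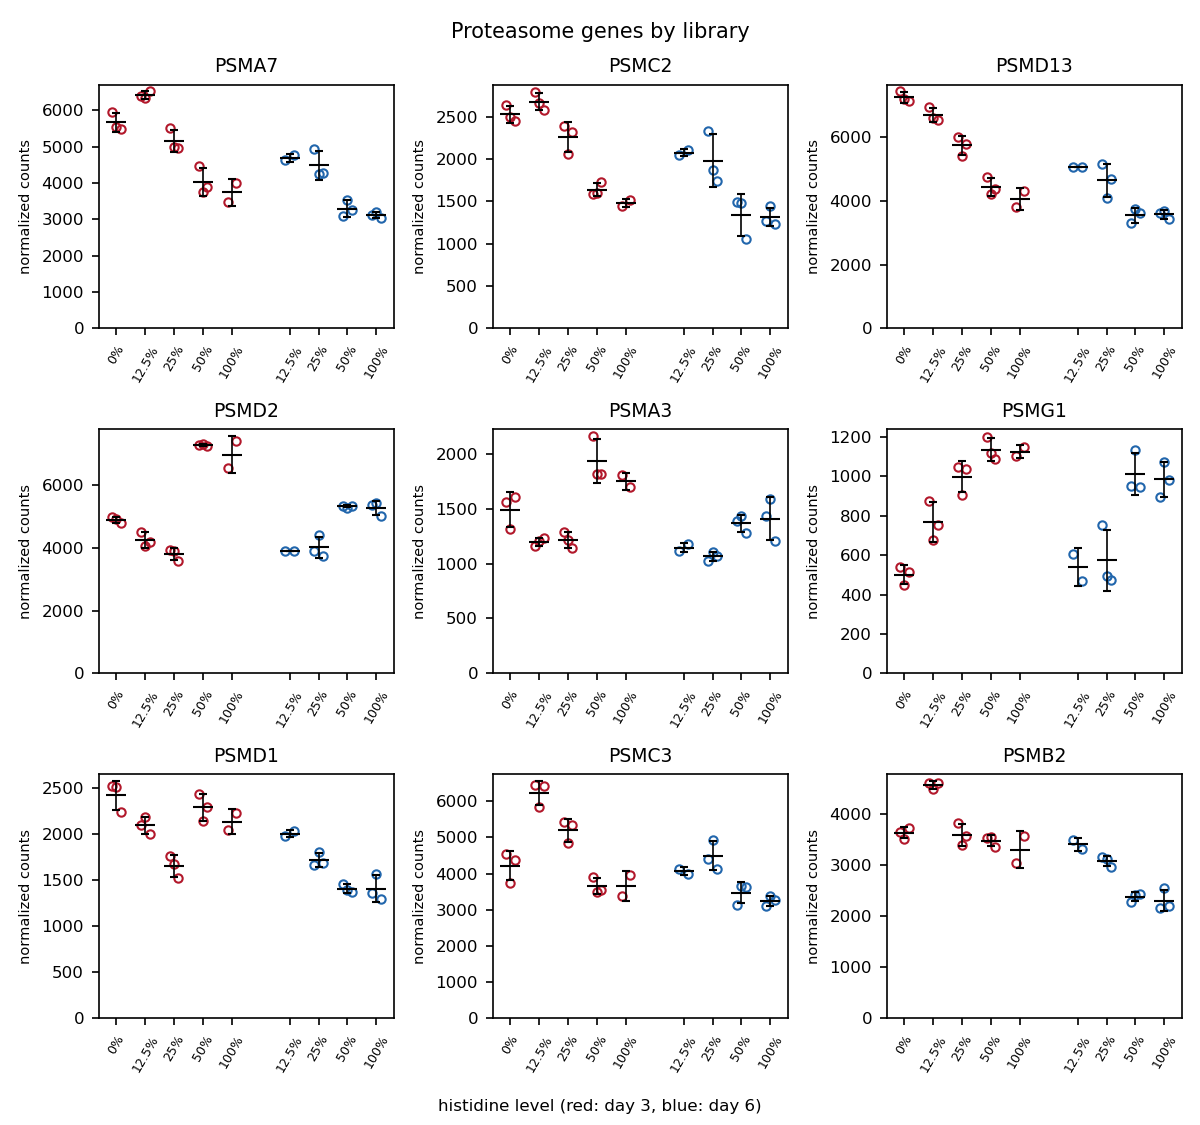
Normalized counts per library (circles; red day 3, blue day 6) of 9 members, with group means and SD (bars), by histidine level from low to high. PSMA7, PSMC2 and PSMD13 are high at low histidine on both days, PSMD2, PSMA3 and PSMG1 are low there, and PSMD1 has a low 25% group on day 3 that is not seen on day 6.

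Of the chaperones that pair to build the alpha ring, PSMG1 fell. Of 4, 0 rose and 1 fell at 0% on day 3, 2 rose and 1 fell at 12.5% on day 3, and 0 rose and 2 fell at 12.5% on day 6. The 1 of 4 at 0% is not above the 31% of all genes called there, and 26.2% and 21.9% of all genes were called in the other comparisons. PSMG1 had normalized counts on day 3 of 539, 447 and 516 at 0%, 875, 675 and 756 at 12.5%, 1047, 907 and 1040.1 at 25%, 1199, 1117 and 1087 at 50% and 1103 and 1149 at 100%. PSMG1 had 607 and 471 at 12.5%, 753, 497 and 475 at 25%, 952, 1135 and 947 at 50% and 897, 1074 and 982 at 100% on day 6. The 0% libraries lay below all others of day 3, and the 12.5% and 25% libraries of day 6 lay below the 50% and 100% libraries. The log2 change was -1.17 ± 0.15, adjusted p = 1.21e-06 (limma) at 0%, the largest of any member there, and -0.88 ± 0.15, adjusted p = 0.000126 at 12.5% on day 6. At 12.5% on day 3 it was -0.56 ± 0.15, a call lost without replicate 3 of 100% (limma adjusted p = 0.0689).

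PSMG2, the partner of PSMG1, had normalized counts on day 3 of 604, 589 and 579.8 at 0%, 811, 929.7 and 776 at 12.5%, 758, 694 and 711 at 25%, 834, 717 and 732 at 50% and 572 and 672 at 100%. PSMG2 had 599 and 627 at 12.5%, 750.2, 675 and 688 at 25%, 573, 627 and 610.5 at 50% and 554, 669 and 577 at 100% on day 6. It was higher at 12.5% than at 100% on day 3 by 0.43 ± 0.11 and lower at 0% than at 12.5% (log2 change -0.50 ± 0.09, adjusted p = 0.000233, limma). PSMG3 had normalized counts on day 3 of 1079, 991 and 898 at 0%, 1416, 1312 and 1452 at 12.5%, 1368, 1249 and 1318 at 25%, 1166, 906 and 841 at 50% and 983 and 1095 at 100%. PSMG3 had 948 and 885 at 12.5%, 1028, 1038 and 869 at 25%, 891, 978 and 934 at 50% and 837, 986 and 908 at 100% on day 6. Its 12.5% and 25% libraries lay above all others of day 3. It also was higher at 12.5% than at 100% (0.42 ± 0.11) and lower at 0% than at 12.5% (log2 change -0.50 ± 0.10, adjusted p = 0.000658, limma). Both rises at 12.5% were lost without replicate 1 of 100% (adjusted p = 0.0945 for PSMG2 and 0.102 for PSMG3). PSMG4, the partner of PSMG3, had normalized counts on day 3 of 457, 495 and 452 at 0%, 459.9, 415 and 464 at 12.5%, 473, 388 and 404 at 25%, 564, 530.3 and 649 at 50% and 478 and 538 at 100%. PSMG4 had 308 and 373 at 12.5%, 439.5, 329.7 and 301 at 25%, 471, 475 and 539 at 50% and 429, 543 and 504 at 100% on day 6. Its 12.5% libraries lay below the 50% and 100% libraries of day 6. It fell at 12.5% on day 6 (log2 change -0.53 ± 0.15, adjusted p = 0.00838, limma), a call lost without replicate 1 of 12.5% (adjusted p = 0.172).

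Of the 3 chaperones of 19S assembly, PSMD5 rose at 12.5% on day 3 and PSMD10 fell at 25% on both days. PSMD5 had normalized counts on day 3 of 894, 933 and 1017 at 0%, 1145, 1024 and 1058 at 12.5%, 939.5, 1053 and 943 at 25%, 841, 976 and 755 at 50% and 914 and 745 at 100%. PSMD5 had 981 and 1009.6 at 12.5%, 1123, 965 and 1048 at 25%, 950.5, 855 and 821 at 50% and 789, 914 and 814 at 100% on day 6. Its 12.5% libraries lay above the 100% libraries on both days, and its rise on day 3 of 0.38 ± 0.11 was lost without replicate 3 of 100% (limma adjusted p = 0.254). PSMD10, also known as gankyrin, had normalized counts on day 3 of 1623, 1676 and 1749 at 0%, 1577, 1501 and 1669 at 12.5%, 1364, 1321 and 1259 at 25%, 2064, 1744 and 1784 at 50% and 1838 and 1730.3 at 100%. PSMD10 had 1364 and 1434 at 12.5%, 1319, 1088 and 1252 at 25%, 1613, 1687 and 1471 at 50% and 1573, 1594 and 1463 at 100% on day 6. Its falls at 25% had no overlap with 100% (log2 change -0.44 ± 0.09, adjusted p = 0.000521 on day 3 and log2 change -0.34 ± 0.08, adjusted p = 0.00203 on day 6, limma). PSMD9 had normalized counts on day 3 of 343, 455 and 427 at 0%, 341, 361 and 415 at 12.5%, 351, 296 and 199 at 25%, 441, 404 and 357 at 50% and 264 and 447 at 100%. PSMD9 had 271 and 269 at 12.5%, 340.3, 231 and 267 at 25%, 302, 405 and 243 at 50% and 272, 314 and 173 at 100% on day 6. Its compared groups overlapped except 25% and 50% on day 3, and it passed none of the 15 tests.

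Among the activators, which open the core gate without the 19S particle, PSME3 rose at every level of 25% and below on both days, PSME1 and PSME2 were called in some comparisons and PSME4 in none. PSME3, the nuclear form, had normalized counts on day 3 of 5742, 5825 and 5972 at 0%, 5511, 6212 and 5652 at 12.5%, 5604, 5536 and 5527 at 25%, 4454, 4788 and 4604 at 50% and 4374 and 4517 at 100%. PSME3 had 5109.9 and 4991 at 12.5%, 4699, 4859 and 4711 at 25%, 4471, 4514 and 3992 at 50% and 4237, 4318 and 4149.6 at 100% on day 6. The 0%, 12.5% and 25% libraries lay above the 50% and 100% libraries of each day, with log2 change 0.40 ± 0.06, adjusted p = 6.47e-06 (limma) at 0% on day 3. At 25% on day 6 its rise of 0.17 was lost without replicate 1 or 3 of 100% or replicate 2 of 25% (adjusted p 0.0589 to 0.0892). PSME1 and PSME2 form the interferon-inducible activator. PSME1 had normalized counts on day 3 of 2862, 2864 and 2989.6 at 0%, 2575, 2255 and 2407 at 12.5%, 2158, 2046 and 2081 at 25%, 3234, 2728 and 2901 at 50% and 2462 and 2800.0 at 100%. PSME1 had 1846 and 1864 at 12.5%, 1887, 1569 and 1803 at 25%, 1954, 2383 and 2199.9 at 50% and 2149, 2107 and 2156 at 100% on day 6. On each day its 25% libraries lay below the 100% libraries (log2 change -0.33 on day 3 and -0.29 on day 6). The calls were lost without replicate 3 of 100% on day 3 (adjusted p = 0.192) and without replicate 2 of 25% on day 6 (0.0735).

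PSME2 had normalized counts on day 3 of 1044, 1135 and 970.3 at 0%, 1389.6, 1415 and 1298 at 12.5%, 1386, 1259 and 1379 at 25%, 1458, 1275 and 1289 at 50% and 1147 and 1283 at 100%. PSME2 had 1127 and 1206 at 12.5%, 1197, 1175 and 1161 at 25%, 906, 988 and 1023 at 50% and 951, 994 and 952 at 100% on day 6. It was lower at 0% than at 12.5% on day 3 (log2 change -0.38 ± 0.08, adjusted p = 0.00047, limma), its 0% libraries lying below every other library of the day, and PSME1 was higher there (0.27 ± 0.08, adjusted p = 0.0133; 0.0527 without replicate 3 of 0% and 0.0795 without replicate 2 of 12.5%). PSME4, which binds the core in the nucleus, had normalized counts on day 3 of 1049, 887 and 1189.8 at 0%, 788, 1129 and 762 at 12.5%, 804, 965 and 814 at 25%, 926, 903 and 1288 at 50% and 992 and 879.5 at 100%. PSME4 had 1094 and 1298 at 12.5%, 784, 876 and 1266 at 25%, 1088, 1259 and 865 at 50% and 1236, 1391 and 1193 at 100% on day 6. PSME4 passed none of the 15 tests. PSMF1, the inhibitor, had normalized counts on day 3 of 4517, 4234 and 4524 at 0%, 4791, 4489 and 4631 at 12.5%, 4470.1, 4207 and 4534 at 25%, 3298, 3809.8 and 3399.8 at 50% and 3321 and 3498 at 100%. PSMF1 had 3829 and 3731 at 12.5%, 3649, 3836 and 3736 at 25%, 3292, 3688 and 3620.2 at 50% and 3402, 3330.2 and 3236 at 100% on day 6. Its 0%, 12.5% and 25% libraries lay above the 50% and 100% libraries on day 3. At 0% on day 3 it rose with log2 change 0.38 ± 0.07, adjusted p = 4.86e-05 (limma). Its rise at 12.5% on day 6 was 0.19 (adjusted p = 0.0406), lost without any 1 of the 5 libraries compared (adjusted p 0.0512 to 0.22).

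Set between neighbouring levels, 29 members were called at 25% against 50% on day 3 (15 higher, 14 lower), against 11.4% of all genes called higher and 12.5% called lower (23.8% in either direction). With total-sum scaling the split was 19 and 9. PSMC3 (0.51) and PSMC2 (0.46) rose most and PSMD2 (-0.94) and PSMA3 (-0.66) fell most (log2 change). At 12.5% against 25% on day 3, 14 members were higher and 0 lower, against 5.41% of all genes called higher and 2.81% called lower (8.22% in either direction). The largest rises were those of PSMB3 (0.44) and PSMD6 (0.36). That count fell to 5 without replicate 1 of 12.5% or replicate 2 of 25%, to 6 without replicate 3 of 25%, to 7 without replicate 3 of 12.5%, and total-sum scaling gave 5 higher and 1 lower. PSMB3 had 3047, 2802 and 3023 normalized counts at 12.5% and 2384, 1998 and 2167 at 25%, and its call was lost without replicate 2 of 25% (adjusted p = 0.0553). PSMD6 had 3510.2, 3333 and 3294 at 12.5% and 2704, 2731 and 2478 at 25%.

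At 0% against 12.5% on day 3, 4 members were higher and 12 lower, against 8.5% of all genes called higher and 12.5% called lower (21% in either direction). With quantile normalization 6 were higher and 9 lower. On day 6, 24 members were called at 25% against 50% (16 higher, 8 lower), against 10.6% of all genes called higher and 10.3% called lower (20.9% in either direction). The largest rise was that of PSMC1 (1644, 1803 and 1579 normalized counts at 25% and 1009.7, 1067 and 1079 at 50%; log2 change 0.67). At 12.5% against 25% on day 6 limma called 0 members, against 0.204% of all genes called higher and 0.67% called lower (0.874% in either direction). At that step 3 members (6.38%) passed at an unadjusted p under 0.05, against 10.6% of all genes, and the alternatives that were run also gave 0 at the adjusted threshold. At 100% histidine, 16 members were lower on day 6 than on day 3 and 0 were higher, against 2.93% of all genes called higher and 5.73% called lower (8.66% in either direction). The count was 4 without replicate 3 of 100% on day 3, and 8 with total-sum scaling, under which the median log2 change of all genes was 0.13 in place of 0.02. PSMD1 had 1362, 1572 and 1293 on day 6 and 2041 and 2231 on day 3 (log2 change -0.60 ± 0.09, adjusted p = 2.78e-05, limma). PSMA5 had 2425, 2700.5 and 2441 normalized counts on day 6 and 4190.2 and 3830.4 on day 3 (log2 change -0.67 ± 0.11, adjusted p = 0.000305, limma).

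Other genes of the pathway were read from lists of proteasome partners, regulators, ubiquitin genes and MHC class I peptide loading. Of 19 proteasome-associated genes tested, 6 rose and 2 fell at 0% on day 3, 8 rose and 0 fell at 12.5% on day 3, and 7 rose and 0 fell at 12.5% on day 6. The shares of all genes called there were 14.8% higher and 16.1% lower (31% in all), 14.2% and 12% (26.2%), and 10.8% and 11.1% (21.9%). ADRM1, a ubiquitin receptor of the 19S particle, had 5459, 5295 and 5177 normalized counts at 0% and 2989 and 3359 at 100% on day 3 (log2 change 0.74 ± 0.07, adjusted p = 1.36e-09, limma). POMP, which assists the maturation of the core, changed by 0.40 and 0.48, and PAAF1, a chaperone that binds 19S ATPases, by 0.38 and 0.74, in these 2 comparisons of 0% on day 3 and 12.5% on day 6.

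Of 16 regulators, 9 rose and 2 fell at 0% on day 3, 10 rose and 2 fell at 12.5% on day 3, and 5 rose and 3 fell at 12.5% on day 6, against 31%, 26.2% and 21.9% of all genes called. NFE2L1, a transcription factor that raises proteasome genes when proteasome activity is short, had 10896, 9823 and 10482 normalized counts at 0% and 5848 and 6673 at 100% on day 3 (log2 change 0.73 ± 0.07, adjusted p = 4.52e-09, limma). DDI2, the protease that processes it, changed by -0.20 ± 0.09 there and did not pass. Of 12 ubiquitin genes, 5 rose and 0 fell at 0% on day 3 (31% of all genes called), 5 rose and 1 fell at 12.5% on day 3 (26.2%), and 6 rose and 2 fell at 12.5% on day 6 (21.9%). UBB, a ubiquitin gene that can share reads with its relatives, rose by 0.75 (log2) at 12.5% on day 6. Of 17 genes of peptide loading, 4 rose and 4 fell at 0% on day 3 (14.8% of all genes called higher, 16.1% lower), 4 rose and 3 fell at 12.5% on day 3, and 3 rose and 3 fell at 12.5% on day 6. At 0%, beside TAP1 and TAP2, B2M, the class I light chain, rose (0.41), and NLRC5, an activator of class I genes, fell (log2 change -0.75 ± 0.24, adjusted p = 0.0157, limma). NLRC5 had 207, 211 and 228 normalized counts at 0%, 232, 202 and 115 at 12.5% and 363 and 364 at 100% on day 3. Its 12.5% libraries thus also lay below its 100% libraries, as did those of TAP2, whereas those of TAP1 lay within the 100% range.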

How the data were processed

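RNA of Jurkat cells at 9 combinations of day and histidine level was measured by strand-specific Illumina sequencing of total RNA, per the labels' protocols. The authors deposited 1 table of normalized counts (unit: signal, gene counts already divided by normalization factors, with no raw counts beside them). FastQC 0.11.9, kallisto 0.50.1, DESeq2 1.44.0 and the GRCh38 genome are named, with no roles, per the submitters' processing notes; the annotation, any length correction and the use of strand are named in no source used here. Low values came within 0.05 of whole multiples of 1 step for only 50.2 to 75.3% of values per library, so whole reads were not recovered, the depth is unknown and no count test was run.

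The 22994 genes that reached 10 in 2 or more of the 25 libraries were tested. A pseudocount of 1 was added before taking log2, and limma 3.58.1 (R 4.3.3) estimated 1 mean for each of 9 groups with a trended, robust spread common to all of them. P-values were adjusted by Benjamini and Hochberg over all genes within each of 15 comparisons and called under 0.05. Because of the pseudocount, a log2 change is on the log2(value + 1) scale and is too small for low genes. The fitting step was tested on simulated data. Ratios of subunits were compared by exact permutation. Gene positions and lengths came from GENCODE, promoters from RefSeq.

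Members and lists were chosen with earlier results of these data known. Library values are given for all immunoproteasome, activator and assembly genes, for the 4 largest rises and 4 largest falls called at 0% against 100% on day 3 and at 12.5% against 100% on day 6, and for the leading ones, up to 2 in each direction, of each other comparison; others are given by counts, with PSMB7, PSMD12, PSMC4, PSMC6 and the partner genes added after their values were seen. Alternatives were other pseudocounts, no filter, total-sum scaling, quantile normalization, a replicate block, the library number modulo 8 as a factor, an untrended spread, only the groups compared, and leaving out each library or, together, replicate 3 of 100%, replicate 3 of 50% and replicate 2 of 25% of day 6.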

Additional observations from a re-analysis of the deposited data

Results flagged for a closer look

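In PSMD1, which holds the base of the 19S particle together, the effect of histidine level differed between the days by the limma test of the difference itself. The day 6 effect minus the day 3 effect was 0.66 on the log2 scale at 25% histidine and 0.54 at 12.5%, each against 100%. In PSMD2, its partner scaffold, the same difference at 25% was 0.48: the fall was smaller on day 6 than on day 3. In PSMC3, an ATPase, the difference at 12.5% was -0.44, the rise being smaller on day 6. The limma adjusted p was 0.000525 and 0.00976 for PSMD1, 0.00144 for PSMD2 and 0.0499 for PSMC3. Only the PSMD1 call at 25% was kept under every alternative, and both calls at 12.5% were lost when single libraries were left out. At each level 2 of the 47 members passed, which is near the share of all genes called, 4.72% at 25% and 3.64% at 12.5%.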

How the results depend on the processing

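Of 235 calls of members in 15 comparisons, 0 changed direction under any alternative run. The calls kept were 232 with a pseudocount of 0.5, 234 with 10, 221 without the filter, 208 with total-sum scaling, 199 with quantile normalization, 202 with an untrended spread, 219 with only the groups compared, 157 with the library number as a factor and 212 without 3 libraries of day 6. Whether the replicate numbers pair the libraries was not settled. A correlation of deviations over 0.1 was seen in 1 of 15 same-number pairs of day 6 and 0 of 26 of day 3. The median correlation on day 6 was 0.0295 for same-number pairs and -0.0034 for other pairs, and on day 3 -0.0012 and -2e-04. On day 6, 6 of 11 libraries correlated best with their own number, and on day 3, 3 of 14. With the replicate block 226 calls were kept.

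Counts moved by over 1.5 times in several comparisons, and the cause was not tested. With the library number as a factor, 15 members were called at 25% against 100% and 8 at 0% against 12.5%, both on day 3. At 12.5% against 25% on day 3 the count was 6 with total-sum scaling, 3 with quantile normalization, 0 with the library number as a factor and 6 with an untrended spread. For day 6 against day 3 at 100% it was 8, 8, 7 and 9 under the same settings. The day difference at 25% gave 6 with total-sum scaling and 1 with the library number as a factor. At 12.5% it gave 1 with a pseudocount of 0.5, without the filter, with the library number as a factor, with an untrended spread, and without the 3 libraries.

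Leaving out 1 library in turn gave 5 to 11 members at 12.5% against 25% on day 3, 4 to 18 for day 6 against day 3 at 100%, 2 to 3 for the day difference at 25% and 0 to 2 at 12.5%. Against 100% on day 6, leaving out 1 library of a group of 3 gave 24 to 29 members at 25% (30 with all libraries) and 22 to 25 at 12.5% (27). On day 3 it gave 21 to 24 at 25% (25 with all libraries), 26 to 27 at 12.5% (27) and 21 to 24 at 0% (23). The sequencing depth is unknown, so the counting error of low members such as PSMA8 cannot be given.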
